A study of Mus musculus with 12 samples.

Results

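The secreted growth factors described here are 10 genes: Igf1, Vegfa, Pdgfa, Pdgfb, Hgf, Tgfa, Hbegf, Osm, Gdf15 and Bdnf. They are a list of repair factors, chosen with earlier results of these data known. Each was matched by symbol among the 49585 genes of the deposited tables. All 10 were found, 8 had enough counts for a test, and Gdf15 and Bdnf did not. They were followed in nuclear RNA of microglia, the resident immune cells of the central nervous system, from the spinal cord of C57BL/6 mice. The 4 groups hold 3 libraries each: sham-operated mice, and mice with an injured cord taken 3 days, 7 days or 14 days later. The sham libraries carry the 7-day label, so the 3-day and 14-day libraries have no sham of their own time. Each library pools cord tissue from both sides of the lesion of 3 animals, and an anti-GFP antibody on magnetic beads captured the nuclei that carried GFP (green fluorescent protein). The sources used here do not give what drives the GFP, nor the age or sex of the animals.

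Secreted growth factors carry signals from one cell to another by binding receptors on the target cell, most of which are tyrosine kinases. In the injured cord, microglia and infiltrating macrophages are known sources of factors that act on vessels, on glial progenitors, on astrocytes and on neurons. Insulin-like growth factor 1 (Igf1) supports survival and myelin-forming cells, vascular endothelial growth factor A (Vegfa) drives vessel growth, and the platelet-derived growth factors (Pdgfa, Pdgfb) act on oligodendrocyte progenitors, pericytes and fibroblasts. Hepatocyte growth factor (Hgf) signals through Met, transforming growth factor alpha (Tgfa) and heparin-binding EGF-like growth factor (Hbegf) through the EGF receptor, and oncostatin M (Osm) through Osmr and Il6st. Growth differentiation factor 15 (Gdf15) is a stress-induced factor, and brain-derived neurotrophic factor (Bdnf) is the ligand of Ntrk2.

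The promoter windows below are shown for Vegfa and Hgf because both genes had a rise called after injury, the first at 3 days and the second at 7 and 14 days. They are the 250 bases upstream of the RefSeq start nearest to the annotated gene start, from the RefSeq promoter table of GRCm38.p6, written 5′ to 3′ on the gene's strand. The Vegfa window is chr17:46032378-46032627 on the minus strand and the Hgf window is chr5:16553245-16553494 on the plus strand. Capitals mark matches to the motifs searched on both strands.
Vegfa: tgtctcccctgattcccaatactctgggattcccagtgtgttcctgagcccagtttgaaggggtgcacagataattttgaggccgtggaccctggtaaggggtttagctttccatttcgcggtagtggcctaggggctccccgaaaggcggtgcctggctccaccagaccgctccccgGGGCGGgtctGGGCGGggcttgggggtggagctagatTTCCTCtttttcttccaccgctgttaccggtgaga
Hgf: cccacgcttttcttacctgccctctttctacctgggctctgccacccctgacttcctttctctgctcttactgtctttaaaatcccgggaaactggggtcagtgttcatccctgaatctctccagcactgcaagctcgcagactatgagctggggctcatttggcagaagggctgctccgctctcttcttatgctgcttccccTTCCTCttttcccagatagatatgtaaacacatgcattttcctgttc

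The motifs searched were AP-1 (TGANTCA), C/EBP (TTGCNNAA), the ETS core bound by PU.1 (GAGGAA), the E-box (CACGTG), the core of the hypoxia response element (ACGTG, which every E-box holds) and the GC box (GGGCGG). The Vegfa window holds 2 GC boxes, 72 and 62 bases upstream of the start, and the PU.1 core on the minus strand 35 bases upstream. The Hgf window holds the PU.1 core on the minus strand, 47 bases upstream. Among 32851 RefSeq promoter windows of the same length, 32.7% hold a GC box, 23.3% the PU.1 core and 16.6% the hypoxia core, so these matches are common letters and describe the windows only. Of the 10 growth factors, 7 have a window in the table (Igf1, Vegfa, Pdgfa, Hgf, Tgfa, Gdf15 and Bdnf). The windows of Igf1 and Pdgfa nearest to the gene start overlap annotated exons of the gene and are not printed.

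Total counts per library were 4003480 to 10670804, and levels are given as CPM, that is counts over the library total after TMM scaling, in each library and as mean ± SD with n = 3 libraries. Libraries of 1 group correlated with r of 0.880 to 0.979 across genes. The labels do not say whether the pools of a group came from separate operations, so p-values measure the spread between these pools. Sham replicate 4 stood apart from the other 11 libraries on the second principal component (119.8, with all others at 26.8 or less). It also had the highest summed astrocyte markers (5084 CPM, against 591 to 2623 CPM elsewhere), and where a named result lost its call without it, that is said. The microglial markers were abundant everywhere, with a summed level of 4985 to 6392 CPM in sham libraries and 3328 to 5600 CPM in injured ones, and none of the 10 was at 0. Markers of monocyte-derived macrophages were present too, at 133 to 187 CPM in sham libraries and at 1188 to 1687 CPM at 3 days. RNA of other cells was also present. The neuron markers summed to 1620 to 3245 CPM in sham libraries and 704 to 881 CPM at 3 days. Of these 10 markers, 9 were called lower at 3 days and 6 at 7 days, beside 9.17% and 4.67% of all genes. The oligodendrocyte markers summed to 883 to 1721 CPM in sham libraries and 950 to 1362 CPM at 3 days. In pooled nuclei, fewer cells of a type and less RNA per cell cannot be told apart.

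Of the 8 growth factors tested, 4 differed somewhere among the 4 groups (Igf1, Vegfa, Pdgfa and Hgf), where 26.4% of all tested genes did so. At 3 days 2 of 8 rose (Igf1 and Vegfa) and none fell, beside 20.0% of all genes that changed in either direction, 10.9% higher and 9.17% lower. By edgeR, 0 falls were seen at any of the 3 times, also at an unadjusted p under 0.05. At 7 days 3 of 8 rose (Igf1, Pdgfa and Hgf), beside 9.28% of all genes changed, 4.61% higher and 4.67% lower. At 14 days 3 of 8 rose, by name those of day 7, beside 9.82% of all genes changed, 5.02% higher and 4.79% lower. The median log2 fold change over the 8 genes was 0.72 at 3 days, 0.81 at 7 days and 0.87 at 14 days, against -0.03, 0.01 and -0.05 over all tested genes. These 3 comparisons share the sham libraries and so are not independent of each other. The list was chosen with earlier results known, so its shares and medians cannot be read as a test against all genes. Of all called genes, 49.7% were higher at 7 days and 51.2% at 14 days, and by limma on RPKM (pseudocount 0.1), which is scaled to library totals, 60.9% and 70.5%. Adjusted p-values come from the quasi-likelihood test of edgeR, with the Benjamini-Hochberg method applied to all 18451 genes.

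**Figure D1:**
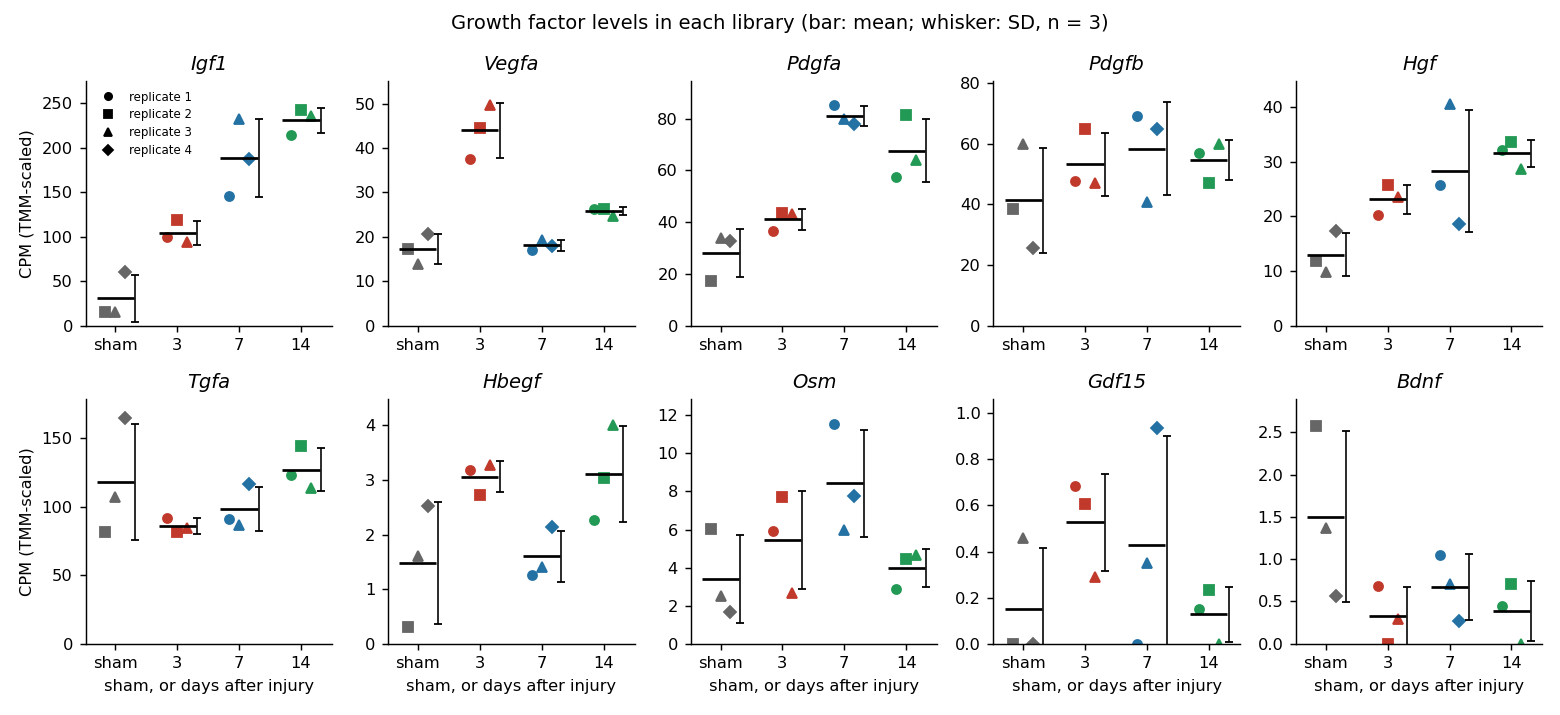
Level of each growth factor in each library, in TMM-scaled CPM on a linear axis from 0, for sham and for 3, 7 and 14 days after injury. Points are libraries, bars are means and whiskers are SDs with n = 3 (cut at 0). Igf1 climbs from 30.6 CPM in sham to 231 CPM at 14 days, Vegfa is highest at 3 days, and Gdf15 and Bdnf stay under 3 CPM in every library.

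The plot of levels by library includes the 4 factors that changed. A rise was called for Igf1 at all 3 times, for Vegfa at 3 days, and for Pdgfa and Hgf at 7 and 14 days. These calls alone do not set the courses apart. Between injury times, edgeR called differences for Vegfa and Pdgfa only. By the same test Hgf just missed the threshold at 3 days (adjusted p = 0.0522). Its log2 difference from 3 to 7 days was 0.29 (adjusted p = 0.511). From 7 to 14 days none of the 8 passed edgeR's test, with 2 at an unadjusted p under 0.05 (Vegfa and Osm) and 0 called by DESeq2 or limma. In that comparison 2.19% of all genes changed, 1.35% higher and 0.835% lower, and the libraries of 14.0% lay wholly higher and of 16.7% wholly lower.

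Igf1 had the largest rise of the 8 tested factors at every time. Igf1 (ENSMUSG00000020053) lies on chromosome 10 of GRCm38, from 87858265 to 87937042 on the plus strand. Its level was 15.4, 15.8 and 60.5 CPM in sham replicates 2, 3 and 4, then 99.5, 119 and 93.6 CPM in 3-day replicates 1, 2 and 3. It was 146, 233 and 188 CPM in 7-day replicates 1, 3 and 4 and 215, 243 and 235 CPM in 14-day replicates 1, 2 and 3. Every injured library lay above every sham library, as was so for 18.7%, 12.1% and 15.5% of all genes at 3, 7 and 14 days, and sham replicate 4 was the highest of its group by far.

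The group means of Igf1 were 30.6 ± 25.9 CPM (sham), 104 ± 13.3 CPM (3 days), 189 ± 43.6 CPM (7 days) and 231 ± 14.5 CPM (14 days). Against sham, the log2 fold change was 1.80 ± 0.39 (SE) at 3 days (adjusted p = 0.00549), 2.66 ± 0.40 at 7 days (adjusted p = 0.00138) and 2.95 ± 0.40 at 14 days (adjusted p = 0.000464). That is 3.47-fold, 6.31-fold and 7.71-fold of the sham level. Without sham replicate 4 the log2 fold changes were 2.71, 3.59 and 3.87, so this 1 library moves the size of the rise by more than 1.5 times while leaving each rise past the threshold.

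The order of the Igf1 levels was sham, 3, 7 and 14 days. Only the step from sham to 3 days passed the test. From 3 to 7 days the log2 difference was 0.86 ± 0.37 (adjusted p = 0.13), with every 7-day library above every 3-day library (19.5% of all genes), and from 7 to 14 days it was 0.29 ± 0.37 (adjusted p = 0.743). The step from 3 to 7 days did pass in the test without a filter (0.87, adjusted p = 0.000761) and in the fit of the 2 groups alone (0.85, adjusted p = 0.00874). Across the longer span from 3 to 14 days it was 1.15 ± 0.37 (adjusted p = 0.0749), with every 14-day library above every 3-day library (20.1% of all genes). DESeq2, limma on RPKM (pseudocount 1), the test without a filter and the fit of the 2 groups alone put that difference past the threshold.

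The genes whose course over the 12 libraries was most like that of Igf1 were Hpse, which encodes heparanase, Gas2l3 and Ikbke. Their root mean square differences from Igf1 in centred log2 CPM were 0.41, 0.50 and 0.53. The candidates were 9301 genes with a mean of at least 10 CPM, and the measure describes these libraries only.

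Hgf encodes the ligand of the Met receptor and lies on chromosome 5 of GRCm38, from 16553495 to 16620152 on the plus strand. Its level was 11.8, 9.83 and 17.4 CPM in sham replicates 2, 3 and 4 and 20.3, 25.6 and 23.4 CPM in 3-day replicates 1, 2 and 3. It was 25.8, 40.5 and 18.6 CPM in 7-day replicates 1, 3 and 4 and 32.1, 33.7 and 28.7 CPM in 14-day replicates 1, 2 and 3. All injured libraries lay above all sham libraries, with 7-day replicate 4 only just above sham replicate 4, and the 7-day group spread the most. Of all genes, 18.7%, 12.1% and 15.5% likewise lay wholly above sham at 3, 7 and 14 days.

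The mean of Hgf was 23.1 ± 2.70 CPM for the 3-day libraries, 28.3 ± 11.2 CPM for the 7-day libraries and 31.5 ± 2.52 CPM for the 14-day libraries. The log2 fold change at 3 days was 0.84 ± 0.29 and missed the threshold (adjusted p = 0.0522). Without sham replicate 4 it was 1.06 (adjusted p = 0.0176), and DESeq2 and the tests without a filter or with a stricter one also put it past the threshold.

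Hgf rose at 7 days by a log2 fold change of 1.13 ± 0.29 (adjusted p = 0.0263). That call was lost under 6 of 14 alternatives, among them without sham replicate 3 (0.94), without 7-day replicate 1 (adjusted p = 0.0536) and without 7-day replicate 3 (0.77), with limma on RPKM (pseudocount 1) and in a fit of the 2 groups alone. The rise at 14 days was 1.29 ± 0.29 (adjusted p = 0.0125), or 2.44-fold, and held under all 14 alternatives run. No step between injury times passed the test, with log2 differences of 0.29 from 3 to 7 days, 0.16 from 7 to 14 days and 0.44 from 3 to 14 days. The predicted gene Gm43489 shares 484 exonic bases with Hgf on the same strand and had 81 counts in all libraries together.

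The genes most like Hgf over the 12 libraries were Cybb, which encodes the catalytic subunit of the phagocyte NADPH oxidase, Myo5a, a motor protein gene, and Alcam, a cell adhesion gene. Their root mean square differences from Hgf in centred log2 CPM were 0.23, 0.24 and 0.25.

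Vegfa was high at 3 days and back near the sham level at 7 days. Vegfa (ENSMUSG00000023951) lies on chromosome 17 of GRCm38, from 46016993 to 46032369 on the minus strand. Its level was 17.3, 13.9 and 20.7 CPM in sham replicates 2, 3 and 4 and 37.6, 44.6 and 49.8 CPM in 3-day replicates 1, 2 and 3. It was 17.0, 19.4 and 17.9 CPM in 7-day replicates 1, 3 and 4 and 26.4, 26.2 and 24.7 CPM in 14-day replicates 1, 2 and 3. The 3-day libraries lay above all others, the 7-day libraries lay within the sham range, and the 14-day libraries lay between. Of all genes, 18.7% lay wholly above sham at 3 days and 15.5% at 14 days.

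The mean of Vegfa was 17.3 ± 3.39 CPM for sham, 44.0 ± 6.12 CPM for day 3, 18.1 ± 1.21 CPM for day 7 and 25.8 ± 0.90 CPM for day 14. Against sham it rose at 3 days by a log2 fold change of 1.35 ± 0.21 (adjusted p = 0.00054), or 2.55-fold, under all 14 alternatives run. At 7 days the log2 fold change was 0.07 ± 0.21 (adjusted p = 0.868), and at 14 days it was 0.58 ± 0.21 (adjusted p = 0.0973). The 14-day value passed the threshold without sham replicate 4 (0.70, adjusted p = 0.0356) and with limma on RPKM (0.60 and 0.71 at the 2 pseudocounts).

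Between injury times, Vegfa fell by 1.28 ± 0.21 on the log2 scale from 3 to 7 days (adjusted p = 0.00243), in a comparison where 13.4% of all genes changed and 7.52% were lower. Every 7-day library lay below every 3-day library, as was so for 20.2% of all genes. From 3 to 14 days it fell by 0.77 ± 0.20 (adjusted p = 0.0328), beside 7.31% of all genes changed, 5.14% lower and 2.17% higher. Here too the libraries did not overlap, as for 23.0% of all genes in that direction. That call was lost when any 1 of the 6 libraries compared was left out, with log2 differences from -0.84 to -0.67. The genes most like Vegfa were Utrn (utrophin), H2-Aa, a class II antigen presentation gene, and Fosl2, an AP-1 subunit gene, at root mean square differences of 0.22, 0.22 and 0.23.

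Other cell types were measured beside the course of Vegfa. The summed level of the 10 endothelial markers was 30.6 to 128 CPM for sham and 169 to 402 CPM for day 3. It was 16.7 to 26.1 CPM for day 7 and 184 to 204 CPM for day 14. Like Vegfa, this sum was higher at 3 days than at 7 days. At 14 days the sum lay within its 3-day range, while Vegfa lay below all its 3-day libraries. Vegfa at 14 days did not pass against sham or against 7 days. The summed level of the 10 fibroblast and pericyte markers was 63.3 to 549 CPM for sham and 376 to 961 CPM for day 3. It was 68.1 to 178 CPM for day 7 and 674 to 780 CPM for day 14. The 3-day range of the fibroblast and pericyte sum overlaps that of sham. Against sham, edgeR called 10 of 10 endothelial markers higher at 3 days and 3 at 14 days. Of the 10 fibroblast and pericyte markers it called 1 and 2 higher, beside 10.9% and 5.02% of all genes. None of these 20 markers was at 0 throughout a group. Their part in the result for Vegfa was not tested. The monocyte-derived macrophage markers (10 genes, of which F10 was at 0 in all sham libraries) had summed levels of 133 to 187 CPM (sham), 1188 to 1687 CPM (3 days), 270 to 618 CPM (7 days) and 718 to 839 CPM (14 days). Of these 10 markers 7 were tested. Against sham, edgeR called 4, 2 and 2 of them higher at 3, 7 and 14 days, beside 10.9%, 4.61% and 5.02% of all genes. At 14 days 1 was called lower, so the list did not move as a whole. The part of these markers in the courses of Igf1, Hgf and Pdgfa was not tested either.

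**Figure D2:**
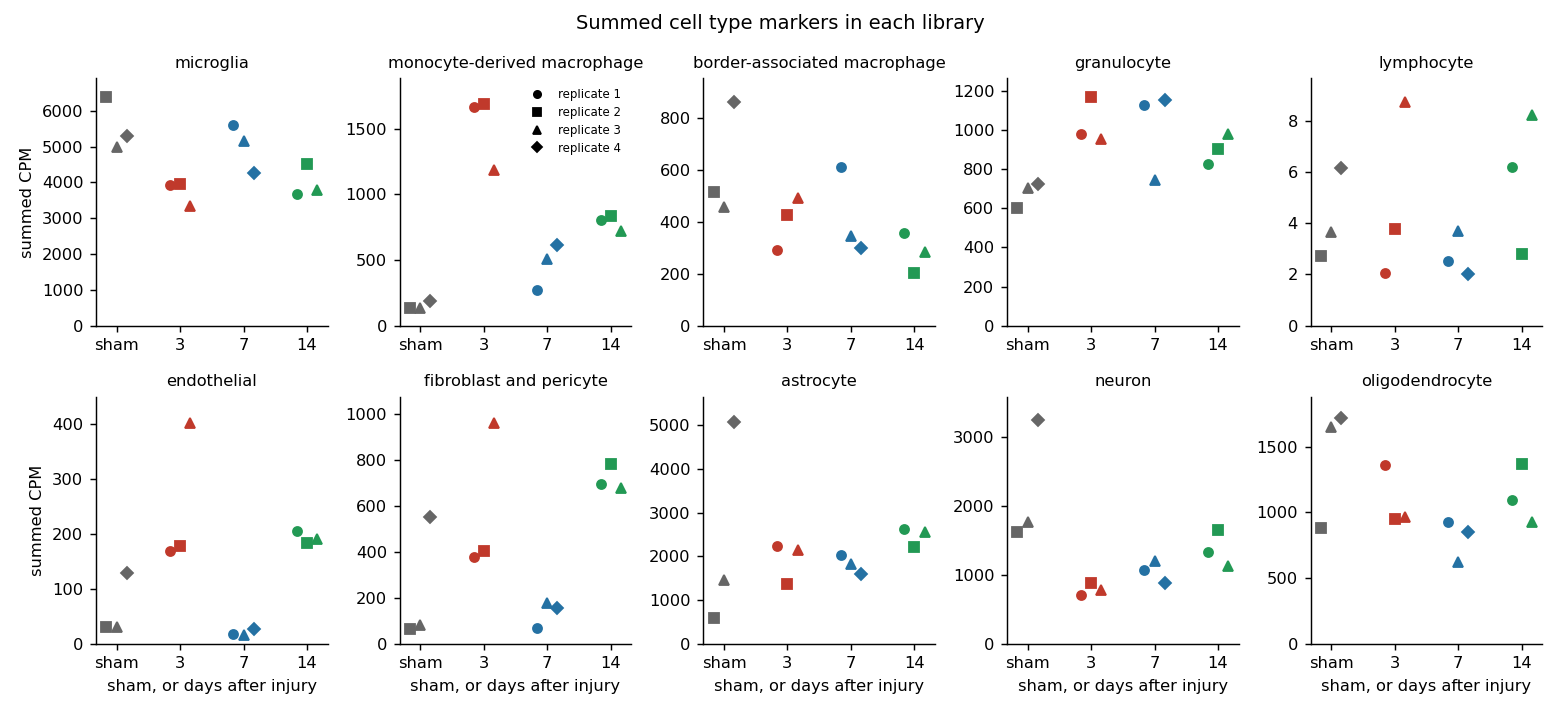
Summed TMM-scaled CPM of 10 marker lists in each library, by group, on linear axes from 0. Endothelial and fibroblast and pericyte sums are higher at 3 and 14 days than at 7 days. The fibroblast and pericyte sums at 3 days overlap those of sham, and sham replicate 4 has the highest astrocyte sum, at 5084 CPM.

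The plot of marker sums gives the cellular background against which the growth factor levels are read. The microglial sums of all injured libraries but 7-day replicates 1 and 3 lie below those of every sham library, and the lymphocyte sums stay at 8.74 CPM or less.

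Pdgfa, which encodes the A chain of platelet-derived growth factor, was high at 7 and 14 days. Pdgfa (ENSMUSG00000025856) lies on chromosome 5 of GRCm38, from 138976014 to 138997370 on the minus strand. Its level was 17.4, 34.1 and 32.8 CPM in sham replicates 2, 3 and 4 and 36.4, 43.4 and 43.3 CPM in 3-day replicates 1, 2 and 3. It was 85.5, 79.8 and 78.0 CPM in 7-day replicates 1, 3 and 4 and 57.6, 81.3 and 64.2 CPM in 14-day replicates 1, 2 and 3. The 7-day and 14-day libraries lay above all sham and 3-day libraries, and sham replicate 2 was the lowest. Of all genes, 12.1% and 15.5% lay wholly above sham at 7 and 14 days, and 19.5% and 20.1% wholly above the 3-day libraries.

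The mean of Pdgfa was 28.1 ± 9.26 CPM for sham, 41.1 ± 3.99 CPM for day 3, 81.1 ± 3.92 CPM for day 7 and 67.7 ± 12.3 CPM for day 14. Its change from sham on the log2 scale was 0.56 ± 0.24 at 3 days, which did not pass (adjusted p = 0.107). It was 1.54 ± 0.24 at 7 days (adjusted p = 0.00168) and 1.28 ± 0.24 at 14 days (adjusted p = 0.00409), or 2.91-fold and 2.43-fold, and both held under every alternative run.

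From 3 to 7 days Pdgfa rose by 0.98 ± 0.23 on the log2 scale (adjusted p = 0.0148), beside 5.85% of all genes that were higher. The call was lost without 3-day replicate 1 (adjusted p = 0.0567), 3-day replicate 3 (adjusted p = 0.0595) or 7-day replicate 1 (adjusted p = 0.0542). From 7 to 14 days the log2 difference was -0.26 ± 0.23 (adjusted p = 0.602).

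Pdgfa shares 813 exonic bases with 6330403L08Rik, an antisense gene with 2058 counts in all libraries. The sources used here do not give the strand setting of the counting, so reads of the shared stretch cannot be assigned with certainty. The log2 fold change of 6330403L08Rik itself was 0.80 at 7 days (adjusted p = 0.0563) and 1.03 at 14 days (adjusted p = 0.0175). With the counts of both genes summed, a choice made after seeing the data, the log2 fold change was 1.26 at 7 days (adjusted p = 0.00181) and 1.18 at 14 days (adjusted p = 0.00215). In the sum, the difference from 3 to 14 days was 0.78 (adjusted p = 0.0243), while for Pdgfa alone it was 0.72 (adjusted p = 0.0752).

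The genes most like Pdgfa over the 12 libraries were Fance, a gene of the Fanconi anemia DNA repair pathway, Lag3, an inhibitory immune receptor gene, and Nmnat3, which encodes an enzyme of NAD synthesis. Their root mean square differences from Pdgfa in centred log2 CPM were 0.31, 0.31 and 0.31.

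Pdgfb, which encodes the B chain, did not pass the test in any comparison. Its level was 38.6, 59.9 and 25.5 CPM in sham replicates 2, 3 and 4 and 47.6, 65.1 and 47.0 CPM in 3-day replicates 1, 2 and 3. It was 69.3, 40.9 and 64.9 CPM in 7-day replicates 1, 3 and 4 and 57.0, 47.2 and 59.9 CPM in 14-day replicates 1, 2 and 3. The groups overlap, and sham replicate 3 lay above 5 of the 9 injured libraries. The log2 fold changes against sham were 0.36 ± 0.28, 0.49 ± 0.28 and 0.40 ± 0.28 at 3, 7 and 14 days (adjusted p = 0.392, 0.278 and 0.392).

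**Figure D3:**
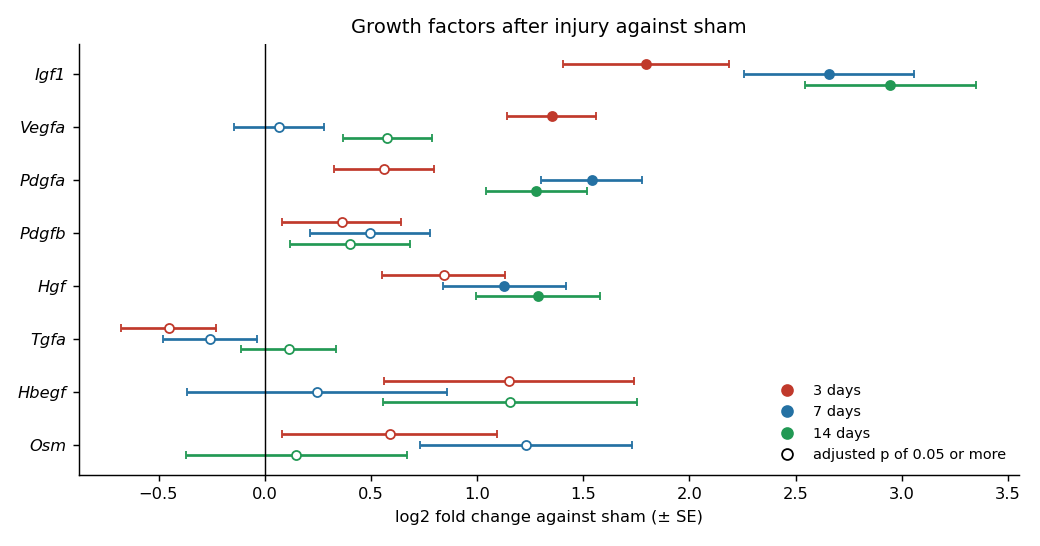
log2 fold change against sham, with SE, of the 8 growth factors tested at 3, 7 and 14 days, all against the same sham libraries. Filled points passed the test and open points did not, and Igf1 has the largest values, from 1.80 to 2.95.

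The plot of fold changes places the filled points at Igf1 for all 3 times, at Vegfa for 3 days, and at Pdgfa and Hgf for 7 and 14 days. Every estimate of Pdgfb, Hbegf and Osm lies above 0 without passing, and those of Tgfa lie on both sides of 0.

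Tgfa and Hbegf are made as membrane-bound precursors and are released by cutting before they bind the EGF receptor. The level of Tgfa was 81.6, 107 and 164 CPM in sham replicates 2, 3 and 4 and 92.0, 81.3 and 84.2 CPM in 3-day replicates 1, 2 and 3. It was 90.7, 86.8 and 117 CPM in 7-day replicates 1, 3 and 4 and 123, 144 and 114 CPM in 14-day replicates 1, 2 and 3. All groups overlap the wide sham range, whose top is sham replicate 4.

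The log2 fold change of Tgfa against sham was -0.45 ± 0.22 at 3 days, -0.26 ± 0.22 at 7 days and 0.11 ± 0.22 at 14 days (adjusted p = 0.165, 0.482 and 0.792). Without sham replicate 2 the 3-day value was -0.69 and passed the threshold (adjusted p = 0.0283), and without sham replicate 4 it was -0.16. From 3 to 14 days the log2 difference was 0.56 ± 0.22 (adjusted p = 0.141), with every 14-day library above every 3-day library (20.1% of all genes). The predicted gene Gm43917, on the other strand, shares 118 exonic bases with Tgfa and had 1793 counts in all.

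Hbegf and Osm were low, and their values rest on few reads. Hbegf had 2, 7 and 9 counts in sham replicates 2, 3 and 4 and 14, 18 and 34 counts in 3-day replicates 1, 2 and 3. It had 6, 8 and 16 counts in 7-day replicates 1, 3 and 4 and 15, 13 and 18 counts in 14-day replicates 1, 2 and 3. The means were 1.47 ± 1.11 CPM (sham), 3.06 ± 0.29 CPM (3 days), 1.60 ± 0.47 CPM (7 days) and 3.10 ± 0.88 CPM (14 days), high at the same times as the endothelial marker sum, whose part was not tested. No difference passed, and the log2 fold changes against sham were 1.15 ± 0.59, 0.25 ± 0.61 and 1.16 ± 0.60.

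Osm, an interleukin 6 family cytokine made by myeloid cells, had 40, 11 and 6 counts in sham replicates 2, 3 and 4 and 26, 51 and 28 counts in 3-day replicates 1, 2 and 3. It had 55, 34 and 58 counts in 7-day replicates 1, 3 and 4 and 19, 19 and 21 counts in 14-day replicates 1, 2 and 3. The mean was 3.42 ± 2.32 CPM in sham and highest at 7 days, at 8.42 ± 2.83 CPM. The 7-day libraries overlap sham through sham replicate 2. The log2 fold change at 7 days was 1.23 ± 0.50 (adjusted p = 0.132), and without sham replicate 2 it was 1.97 and passed (adjusted p = 0.0261).

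Gdf15 and Bdnf were near the limit of detection. Gdf15 had 0, 2 and 0 counts in sham replicates 2, 3 and 4, 3, 4 and 3 counts at 3 days, 0, 2 and 7 counts at 7 days and 1, 1 and 0 counts at 14 days. Bdnf had 17, 6 and 2 counts in the sham libraries, 3, 0 and 3 counts at 3 days, 5, 4 and 2 counts at 7 days and 3, 3 and 0 counts at 14 days. Neither gene allows a statement on change at this depth. Tested without a filter, Bdnf had the lowest adjusted p of the pair at 3 days (log2 fold change -2.31 ± 0.97, adjusted p = 0.106), with 17 of the 25 sham counts in sham replicate 2.

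To compare levels between genes, RPKM were used, which divide the count by gene length and library total. In sham libraries Tgfa had the highest mean of the 10 at 17.4 ± 5.43 RPKM, followed by Pdgfb at 14.1 ± 7.29 and Pdgfa at 8.78 ± 3.30 RPKM. By library, Pdgfb lay above Tgfa in sham replicates 2 (12.4 against 11.8 RPKM) and 3 (22.1 against 17.8 RPKM). In sham replicate 4 it lay below Tgfa (7.79 against 22.6 RPKM). Igf1 stood at 2.87 ± 2.23 RPKM in sham, below Vegfa at 3.86 ± 0.42 RPKM on average, and the ranges of Igf1 and Vegfa libraries overlap. At 14 days Igf1 had 24.6 ± 1.62 RPKM, Pdgfa 22.9 ± 4.26, Tgfa 20.6 ± 2.61 and Pdgfb 19.7 ± 2.31 RPKM. Every Igf1 library of that time lay above every Pdgfb library, and the libraries of all other pairs of these 4 genes overlap.

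The summed RPKM of the 10 genes was 39.1, 60.7 and 53.4 in the sham libraries and 68.3 to 79.4 at 3 days, 85.0 to 99.0 at 7 days and 96.3 to 109 at 14 days. The share of Igf1 in that sum was 3.73%, 2.82% and 10.2% in sham replicates 2, 3 and 4 and 23.7% to 24.8% at 14 days. The share of Tgfa was 29.3% to 42.3% in sham and 18.3% to 21.5% at 14 days. These sums and shares describe the libraries and carry no test.

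**Figure D4:**
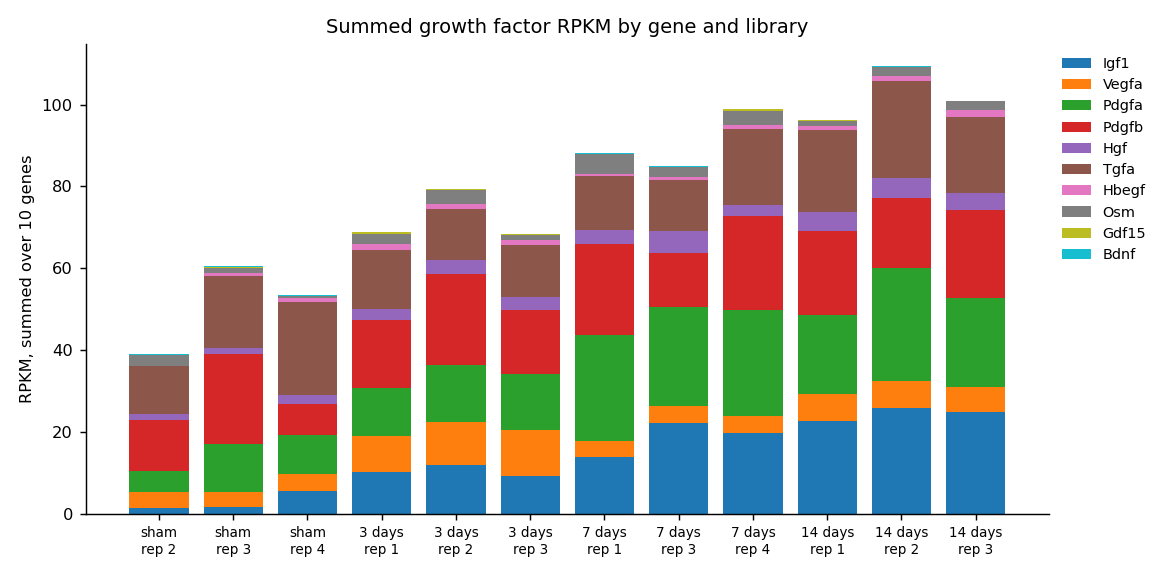
RPKM of the 10 growth factors stacked for each of the 12 libraries, on a linear axis from 0. The stack grows from 39.1 to 60.7 RPKM in sham libraries to 96.3 to 109 RPKM at 14 days, with the Igf1 and Pdgfa blocks growing most.

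In the stacked plot the Tgfa and Pdgfb blocks make up most of the sham libraries, while at 14 days Igf1, Pdgfa, Tgfa and Pdgfb each hold a large block.

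The receptors of these factors were read from a list of 21 genes, of which 20 were tested and Gfral, the Gdf15 receptor, was not. Against sham, 8 of 20 rose and 1 fell at 3 days, 3 rose and 3 fell at 7 days, and 6 rose and none fell at 14 days. Among all tested genes 10.9%, 4.61% and 5.02% were higher and 9.17%, 4.67% and 4.79% lower at these times. At 14 days 2 of the receptors were lower at an unadjusted p under 0.05, and neither DESeq2 nor limma called a fall. The median log2 fold change of the list was 0.38, -0.44 and 0.52 at the 3 times. The 3-day count of rises was 5 to 8 under the alternatives, and the 3 falls at 7 days became 0 without sham replicate 4.

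Igf2r, which binds Igf2 and mannose 6-phosphate and is a clearance receptor, rose at every time. Its mean was 6.99 ± 0.74 CPM for sham, then 33.7, 21.8 ± 4.83 and 27.2 ± 1.48 CPM, with log2 fold changes of 2.28 ± 0.24, 1.65 ± 0.24 and 1.97 ± 0.24. The signalling receptor of Igf1, Igf1r, did not pass, at 127 ± 7.59 CPM in sham and 171 ± 15.3 CPM at 14 days (log2 fold change 0.42 ± 0.20, adjusted p = 0.194).

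Among the Vegfa receptors, Kdr was 6.09 ± 0.76 CPM for sham, 38.9 ± 10.8 CPM for day 3, 9.62 ± 0.89 CPM for day 7 and 19.9 ± 0.39 CPM for day 14. Kdr rose at 3 days (2.66 ± 0.26) and 14 days (1.69 ± 0.26), and it fell by 2.01 ± 0.24 from 3 to 7 days (adjusted p = 0.000388). Flt1 was 10.9, 8.23 and 54.0 CPM in sham replicates 2, 3 and 4 and 201, 200 and 212 CPM in the 14-day libraries, a rise of 3.11 ± 0.57 that was 4.38 without sham replicate 4. The co-receptor Nrp1 was 102 ± 1.12 CPM in sham and rose at all 3 times, by 0.96 ± 0.15, 0.88 ± 0.15 and 1.10 ± 0.15.

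The other receptors that rose at 3 days were Met, the Hgf receptor (2.81 ± 0.57, from 1.31 ± 1.01 to 8.49 ± 2.00 CPM), and, chosen for mention after their values were seen, Flt1 (2.47 ± 0.56), Nrp2 (0.64 ± 0.18), Osmr (2.15 ± 0.67) and Pdgfrb (1.91 ± 0.59). Without 3-day replicate 3, Flt1 (1.75, adjusted p = 0.0526), Osmr (1.65, adjusted p = 0.162) and Pdgfrb (1.24, adjusted p = 0.21) did not pass. Nrp2, Osmr and Pdgfrb lost the 3-day call under 5, 6 and 4 of 14 alternatives. The Pdgfa receptor Pdgfra did not pass at any time (log2 fold changes 0.43 ± 0.40, -0.37 ± 0.41 and 0.61 ± 0.40). Lifr was the receptor that fell at 3 days (-0.90 ± 0.28), also named after its value was seen. Lifr lost that call under 5 of 14 alternatives, among them without sham replicate 4 (-0.75, adjusted p = 0.0732). At 7 days the receptor of Bdnf, Ntrk2, fell by 2.17 ± 0.53, and without sham replicate 4, which held 366 CPM of it, the value was -0.78 (adjusted p = 0.0635).

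From 3 to 7 days 7 of the 20 receptors fell and 1 rose, beside 7.52% and 5.85% of all genes, with 1 to 6 falls when single libraries were left out and 3 to 10 under the other alternatives. From 7 to 14 days 2 of 20 rose (Kdr and Flt1), beside 1.35% of all genes. None rose there when any of the 6 libraries was left out, while 10 were higher at an unadjusted p under 0.05, and DESeq2, the fit of the 2 groups alone and the test without a filter called 5, 8 and 9 higher. Kdr, Flt1, Osmr and Pdgfrb are known in vessel or wall cells, and their levels were high and low at the same times as the endothelial and pericyte marker sums. The part of those cells in the receptor values was not tested.

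**Figure D5:**
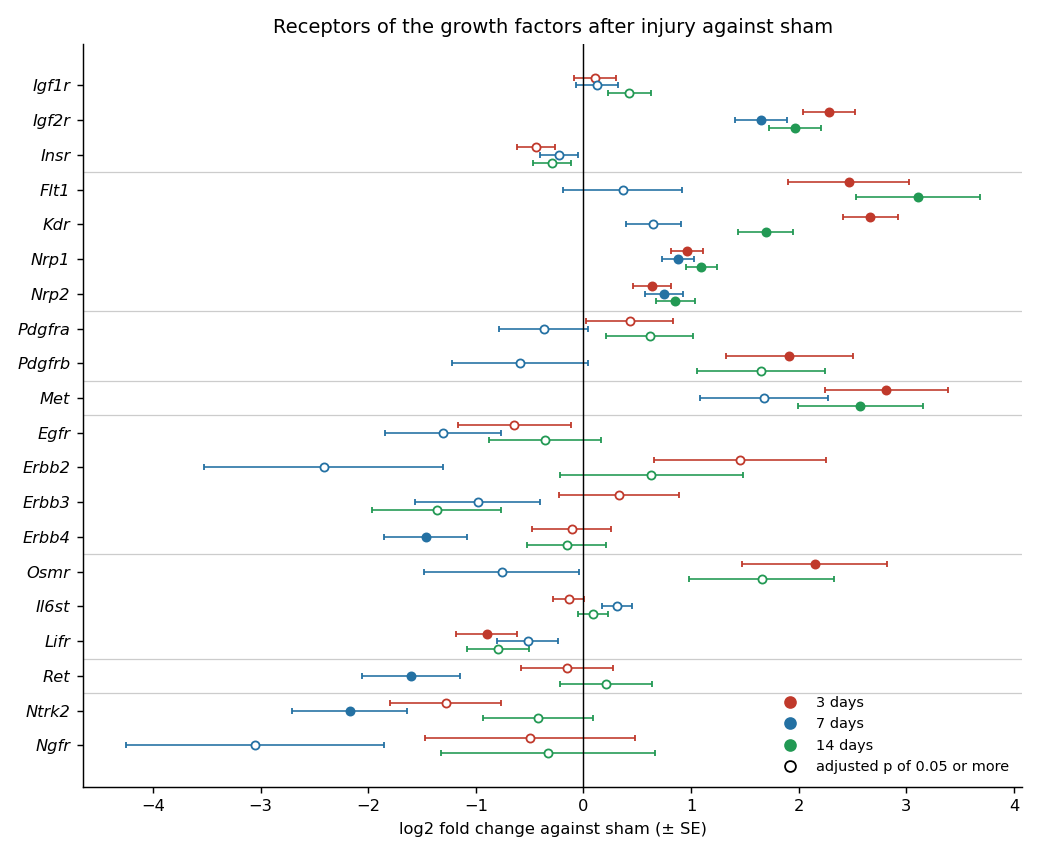
log2 fold change against sham, with SE, of the 20 receptor genes tested at 3, 7 and 14 days, grouped by ligand family. Filled points passed the test. Igf2r and the co-receptors Nrp1 and Nrp2 passed at all 3 times, while Kdr, Flt1 and Met passed at 3 and 14 days only. The 14-day call of Met was lost under 2 of 14 alternatives, and the 7-day call of Nrp2 under 3 of 14.

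In the plot of receptors, the 3-day and 14-day points of Kdr, Flt1, Pdgfrb, Met and Osmr lie to the right of the 7-day points. Those differences between times passed from 3 to 7 days for Kdr, Flt1, Pdgfrb and Osmr, while for Met the difference was -1.14 ± 0.49 (adjusted p = 0.131). Without 3-day replicate 3 the differences of Flt1, Osmr and Pdgfrb did not pass (-1.39, -2.42 and -1.85).

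Of 24 related ligands of the same families, 10 had enough counts. None rose at any time and 2, 2 and 1 fell at 3, 7 and 14 days. The share called in either direction was 20.0% of the list at 3 days and 10.0% at 14 days, near the 20.0% and 9.82% of all tested genes, while at 7 days it was 20.0% against 9.28%. At an unadjusted p under 0.05, 1, 1 and 2 of them were higher, DESeq2 called 1, 0 and 1 higher, and limma (pseudocount 1) called 0, 0 and 1. Without sham replicate 4, 1 was called higher at 3 days and 1 at 14 days. Alternatives other than leaving out a library gave 0 to 2 higher at each of these 2 times. Il6, which encodes a cytokine of the same family as Osm, fell at every time, from 12.6 ± 2.89 CPM in sham to 0.77 ± 0.32, 2.62 ± 0.77 and 4.04 ± 0.76 CPM. Its log2 fold changes were -4.08 ± 0.44, -2.28 ± 0.39 and -1.65 ± 0.38. The 14-day call of Il6 was lost under 2 of 13 alternatives, without 14-day replicate 1 and without 14-day replicate 2. Clcf1, another cytokine of that family, fell by 0.72 ± 0.23 at 3 days (adjusted p = 0.0358) and lost the call under 8 of 14 alternatives, one of them without sham replicate 4 (-0.42). Nrg1, an ErbB ligand, fell by 1.23 ± 0.34 at 7 days (adjusted p = 0.0357) and lost it under 6 of 14, one of them without sham replicate 4 (-0.71).

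Genes that cut, shed or bind the growth factors rose in 8 of 20 cases at 3 days, 5 of 20 at 7 days and 4 of 20 at 14 days, where 1 fell. The shares of all tested genes that were higher were 10.9%, 4.61% and 5.02%. At 3 and 7 days none fell, with 0 and 4 lower at an unadjusted p under 0.05 and 0 and 1 by DESeq2. When single libraries were left out the rises numbered 4 to 8, 2 to 6 and 2 to 7. Rhbdf2, a partner needed for the sheddase that frees Tgfa and Hbegf, rose by 1.87 ± 0.29, 1.26 ± 0.29 and 1.14 ± 0.29, from 12.1 to 35.8 CPM in the sham libraries to 89.4 to 91.8 CPM in the 3-day libraries. The calls of Rhbdf2 at 7 and 14 days were lost under 2 and 3 of 14 alternatives. The sheddase itself, Adam17, did not pass (-0.02 ± 0.21, 0.46 ± 0.21 and 0.50 ± 0.21).

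Cd9, a tetraspanin known to bind the Hbegf precursor, rose at each time, from 19.0 ± 2.07 CPM in sham to 40.6 ± 3.21, 54.3 ± 3.77 and 66.8 ± 4.74 CPM. Adam9, another metalloprotease, rose by 1.07 ± 0.19, 0.86 ± 0.19 and 0.82 ± 0.19. Igfbp3, which binds Igf1 in fluid, rose at 3 days (2.45 ± 0.48) from 1.56 ± 0.82 to 8.51 ± 1.48 CPM. It was 0.95 ± 0.46 CPM at 7 days, on 2 to 9 counts per library. The endothelial marker sum was low at 7 days as well, and the part of those cells in Igfbp3 was not tested. Furin, a protease that matures several growth factor precursors, rose by 0.73 ± 0.19 at 7 days and lost the call in 6 of 14 alternatives, one of them without sham replicate 4 (0.60). At 14 days St14, which encodes the protease matriptase that can activate Hgf, rose by 1.72 ± 0.32, and Spint1, which encodes an inhibitor of Hgf activation, fell by 1.97 ± 0.37 from 31.3 ± 12.2 to 8.06 ± 0.48 CPM.

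Of 24 adaptor and feedback genes downstream of the receptors, 7 rose at 3 days, none changed at 7 days and 3 rose at 14 days. Called in either direction were 29.2% of the list at 3 days and 12.5% at 14 days, the latter near the 9.82% of all tested genes, beside 20.0% of all genes at 3 days. At 7 days 7 were higher and 3 lower at an unadjusted p under 0.05, and DESeq2 called 2 higher and 3 lower. Socs3, a feedback inhibitor induced by Osm and Il6 family signals, was 2.12, 2.74 and 0.56 CPM in the sham libraries and 17.8, 17.3 and 8.26 CPM at 3 days, a rise of 2.92 ± 0.52. Socs2, an inhibitor of growth hormone signalling, rose by 1.52 ± 0.35 at 3 days and 1.41 ± 0.36 at 14 days. Akt2 rose by 1.01 ± 0.22 and 0.77 ± 0.22 at the same times, Stat3 by 0.54 ± 0.15 at 3 days, and Pik3cb by 0.58 ± 0.14 at 14 days. The 14-day call of Akt2 was lost under 9 of 14 alternatives, one of them without sham replicate 4 (0.60, adjusted p = 0.0614). Stat3 at 3 days and Pik3cb and Socs2 at 14 days each lost the call under 5 of 14, Socs2 and Pik3cb when any 14-day library was left out and Stat3 when any 3-day library was. The 3-day count was 3 to 8 when single libraries were left out and the 14-day count was 0 to 2.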

How the data were processed

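The authors deposited raw counts per Ensembl gene and RPKM (count over gene length and library total) for 12 libraries. The submitters' processing notes name featureCounts 1.4.6-p3 and, as builds, GRCm38 and mm10; the sources used here give neither aligner nor strand setting. Per the labels' protocols the RNA was amplified isothermally from a single primer, which can add noise to low genes.

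Counts were fitted with edgeR 4.0.16 in R 4.3.3: filterByExpr, TMM, and a quasi-likelihood fit with 4 group means. Benjamini-Hochberg adjustment covered 18451 genes in each of 6 pairwise contrasts and the any-difference test (threshold 0.05). The SE is |log2 fold change| over the root of F. The fit was tested on simulated data. Positions and exon overlaps come from GENCODE (GRCm38), promoters from RefSeq (GRCm38.p6), figures from matplotlib 3.10.9 under Python 3.11.15.

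The members and lists were chosen with earlier results of these data known. All 10 growth factors are named. Of each other list, a comparison with sham names at most 4 called genes, those of smallest adjusted p, or 2 of highest mean where none was called; the remaining 5 receptors called at 3 days were named after their values were seen. The 3 genes named as most like a changed factor have the smallest root mean square difference in centred log2 CPM. Alternatives: DESeq2 1.42.0, its size factors in edgeR, no low-count filter, a stricter one (1 CPM in 3 libraries, mean 5 CPM), a replicate block, a fit of just the groups compared, limma 3.58.1 on deposited RPKM after log2 (pseudocount 1 or 0.1), and leaving out each library.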

Additional observations from a re-analysis of the deposited data

Results flagged for a closer look

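The change from sham differed between injury times for Vegfa and Pdgfa, each by a test of the difference itself in the edgeR quasi-likelihood fit. Since both times share the sham libraries, that difference is the contrast of the 2 times. For Vegfa it was -1.28 on the log2 scale between 7 and 3 days (adjusted p = 0.00243), and it held under all 14 alternatives. Its 7-day libraries all lay below its 3-day libraries, as for 20.2% of all genes. For Vegfa between 14 and 3 days it was -0.77 (adjusted p = 0.0328), with adjusted p from 0.00237 to 0.176 over the alternatives. That call was lost under 9 of 14 alternatives, among them when any single library compared was left out. All 14-day libraries lay below all 3-day libraries, as for 23.0% of all genes. For Pdgfa between 7 and 3 days it was 0.98 (adjusted p = 0.0148), with adjusted p from 0.00109 to 0.0595 over the alternatives, 3 of which lost the call. Its 7-day libraries all lay above its 3-day libraries, as for 19.5% of all genes.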

How the results depend on the processing

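Of 670 gene values under alternatives, 610 kept their direction and side of the threshold, 18 lost and 22 gained a call, and 20 changed sign, none of the 20 past the threshold. The number of growth factors called from 3 to 7 days was 2, between 1 and 2 when single libraries were left out, and 3 without a filter and in the fit of the 2 groups alone, with Igf1 added. From 3 to 14 days it went from 1 to 3 by DESeq2, 2 without a filter, 2 and 0 by limma (pseudocount 1 and 0.1), 5 in the fit of the 2 groups alone and 0 when any single library was left out. The cause was not tested.

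Sign changes on leaving out single libraries gave ranges of log2 fold changes against sham of -0.094 to 0.20 for Vegfa at 7 days, -0.47 to 0.052 and -0.11 to 0.41 for Tgfa at 7 and 14 days, -0.32 to 0.88 for Hbegf at 7 days and -0.17 to 0.87 for Osm at 14 days. Between times they were -0.00070 to 0.35 for Pdgfb and -0.047 to 0.51 for Hgf from 3 to 7 days, -0.30 to 0.045 for Pdgfb and -0.036 to 0.50 for Hgf from 7 to 14 days, and -0.039 to 0.23 for Pdgfb and -0.19 to 0.23 for Hbegf from 3 to 14 days. By limma, Pdgfb from 7 to 14 days was 0.047 and 0.051 at the pseudocounts of 1 and 0.1.

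Replicate numbers were not treated as pairs in the main fit. Deviations of same-numbered libraries from their group means correlated at -0.30 to 0.07 (13 pairs), those of other numbers at -0.19 to 0.24 (41 pairs). With 3 libraries per group, such correlations cannot exclude a pairing. With the replicate block, Tgfa was -0.034 from 3 to 7 days and Hbegf -0.0032 from 3 to 14 days, Hgf at 7 days was 1.16 (adjusted p = 0.0506), and Vegfa and Igf1 from 3 to 14 days were -0.77 (adjusted p = 0.0606) and 1.15 (adjusted p = 0.0456). Counts of called genes over the whole table moved by more than 1.5 times in several alternatives. At 3 days 3695 became 1817 in the fit of 2 groups. At 7 days 1712 became 172 in the fit of 2 groups, 2889 without a filter, 2610 by DESeq2, and 1137 and 1069 by limma (pseudocount 1 and 0.1). At 14 days 1811 became 925 in the fit of 2 groups and 2822 without a filter. From 7 to 14 days 404 became 1608 with the block, 1562 without a filter, 1087 by DESeq2, 218 by limma (pseudocount 0.1) and 1827 in the fit of 2 groups, and from 3 to 14 days 1349 became 4886 in the fit of 2 groups and 2045 without a filter. Leaving out single libraries gave 1866 to 4152 genes at 3 days, 827 to 3065 at 7 days, 701 to 2793 at 14 days, 564 to 2490 (against 2466) from 3 to 7 days, 1 to 301 from 7 to 14 days and 435 to 844 from 3 to 14 days. With the block, 8 receptors were higher from 7 to 14 days and 10 lower from 3 to 7 days, and Lifr at 3 days had an adjusted p of 0.0541. The median log2 difference of all genes moved by at most 0.03 with DESeq2's size factors, and at 14 days it went from -0.05 to 0.09 and 0.13 by limma on RPKM (pseudocount 1 and 0.1), with moves of 0.10 at 3 days and 0.13 from 7 to 14 days at the pseudocount of 0.1. Relative to the 14-day median of 0.13, the 14-day changes were 3.17 for Igf1, 1.30 for Pdgfa and 1.26 for Hgf. By those 2 limma fits, 77.6% and 78.4% of called genes were higher from 7 to 14 days, against 61.9%, and 45.6% and 47.1% from 3 to 14 days, against 29.7%. Few counts limit Hbegf, Osm, Gdf15 and Bdnf.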

Other observations

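The pools differed in sex make-up, which the labels do not give. The level of Xist ranged from 0.891 to 23672 CPM and the summed level of Y-linked genes from 0.384 to 746 CPM. Within the 7-day group, replicate 1 had 23672 CPM of Xist while replicates 3 and 4 had 5.11 and 0.936 CPM. Igf1 at 7 days was 146 CPM in replicate 1 and 233 and 188 CPM in the other replicates, and Pdgfa was 85.5 CPM against 79.8 and 78.0 CPM. The part of sex in these values was not tested.

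Antisense and predicted genes that overlap the growth factors have counts of their own. Since the strand setting of the counting is not given, reads of Gm43917 cannot be told with certainty from reads of Tgfa. Gm43917, on the other strand of Tgfa, fell by 0.96 ± 0.27 on the log2 scale at 3 days (adjusted p = 0.0214, edgeR quasi-likelihood test), where Tgfa itself had -0.45 ± 0.22 and did not pass.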
